A study of Homo sapiens with 22 samples.

Results

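The genes examined were LRP2, CUBN, AMN, DAB2, LRPAP1, FOLR1, CLCN5 and OCRL, the parts of the megalin-cubilin uptake route of the proximal tubule and the folate receptor that uses it. They were taken by name, 8 of the 36859 genes in the deposited table, and followed across all 22 RNA-seq libraries. RPTEC are human renal proximal tubule epithelial cells immortalized with hTERT, selected with G418. SETD2 writes H3K36me3, and the study compared its loss with TGF-β treatment. Each of the 11 groups had 2 libraries. Those kept in 2% serum were untreated WT, WT given 10 ng/mL TGF-β for 72 h after 24 h of preculture, the SETD2 knockout clones KO1 and KO2, and libraries labelled KO2 rescue. Those kept in 10% serum were the rescue clones and transduced WT lines. Rescue1 and Rescue2 are clones of SETD2 KO cells given lentiviral full-length FLAG-tagged SETD2 and selected with blasticidin. The paper's text does not say which KO clone they were made from, and they are compared here with KO2. WT was transduced with a lentivirus for eGFP, SOX2, OCT2 or PRRX1, each line selected in bulk with puromycin. Each KO line is 1 clone from a guide in exon 3 of SETD2, and each rescue line is 1 clone, so a clone's own history and its SETD2 status cannot be told apart. Rescue against KO2 and eGFP against WT also differ in serum, and the serum and the construct cannot be told apart there.

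Megalin, encoded by LRP2, and cubilin, encoded by CUBN, are large receptors of the apical membrane that take filtered proteins, vitamin carriers and hormones back from the urine. Cubilin has no transmembrane segment and reaches the surface with amnionless, encoded by AMN. Endosomes then return the receptors to the surface and send the ligands to lysosomes. DAB2 is the adaptor that links the receptor tails to clathrin, LRPAP1 is the chaperone that keeps receptors of the lipoprotein receptor family from binding ligands too early, CLCN5 is the chloride-proton exchanger of early endosomes, and OCRL is an inositol phosphatase of clathrin-coated and endosomal membranes. FOLR1, folate receptor alpha, is a surface protein held by a lipid anchor that is found on the apical side of tubule cells. Losses of CLCN5 and OCRL are known causes of low-molecular-weight proteinuria.

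The reference promoters of LRP2, CUBN and AMN are shown because these genes encode the receptors and the partner that brings cubilin to the surface. The RefSeq table on GRCh38.p14 held promoters of 7 of the 8 genes, and FOLR1 was not among them. Each sequence runs 5′ to 3′ on the gene's strand from 250 bases before to 50 bases after a start. Capitals mark matches on either strand to GTTAAT, a motif bound by homeodomain factors, CACCTG, an E-box bound by SNAIL and ZEB factors, AGGTCA, bound by nuclear receptors, or CCAAT. No match overlapped another in these sequences. The LRP2 window is chr2:169362485-169362784 on the minus strand, that of CUBN is chr10:17129762-17130061 on the minus strand, and that of AMN is chr14:102922413-102922712 on the plus strand.
LRP2: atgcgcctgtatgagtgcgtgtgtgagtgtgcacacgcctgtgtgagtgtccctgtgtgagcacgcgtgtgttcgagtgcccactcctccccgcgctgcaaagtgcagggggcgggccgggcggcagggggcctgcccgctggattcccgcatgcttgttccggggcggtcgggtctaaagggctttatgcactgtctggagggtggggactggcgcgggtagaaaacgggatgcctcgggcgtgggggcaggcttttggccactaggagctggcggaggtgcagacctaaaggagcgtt
CUBN: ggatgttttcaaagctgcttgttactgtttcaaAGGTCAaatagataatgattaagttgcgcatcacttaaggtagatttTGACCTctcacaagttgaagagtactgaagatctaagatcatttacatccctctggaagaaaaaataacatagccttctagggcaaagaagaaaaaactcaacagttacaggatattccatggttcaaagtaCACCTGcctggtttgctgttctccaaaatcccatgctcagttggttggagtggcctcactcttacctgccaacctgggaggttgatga
AMN: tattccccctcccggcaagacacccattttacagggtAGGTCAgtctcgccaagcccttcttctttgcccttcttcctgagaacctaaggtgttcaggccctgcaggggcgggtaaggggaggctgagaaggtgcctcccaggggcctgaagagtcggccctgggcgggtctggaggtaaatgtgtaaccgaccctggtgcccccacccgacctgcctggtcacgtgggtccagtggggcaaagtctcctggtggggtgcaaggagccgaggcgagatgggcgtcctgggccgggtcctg
The CUBN window held 2 matches to AGGTCA and 1 to CACCTG, the AMN window held 1 to AGGTCA, and the LRP2 window held 0 of the 4 motifs. Over all 35116 promoters of the table, 13.8% hold AGGTCA, 20.6% CACCTG, 6.88% GTTAAT and 34.6% CCAAT. The CUBN window was poor in CG dinucleotides, with 1 and a GC content of 40.7%, while the LRP2 window had 23 and 65.3%. The AMN window had 12 and 63.7%, where the median promoter had 14 and 58.7%. Among the other members, 1 match to GTTAAT lay in the DAB2 window and 1 to CACCTG in that of OCRL. A match is only a run of letters, and binding was not measured here.

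The values are deposited on a log2 scale and were converted back to normalized counts, which are read counts scaled for library depth. The libraries hold about 7600000 to 18500000 reads each. Duplicates differed by a median of 0.0635 to 0.174 on the log2 scale for genes over 1000 normalized counts. SETD2, the targeted gene, averaged 1956 normalized counts in WT, 1088 in KO1, 1051 in KO2, 10305 in Rescue1 and 10105 in Rescue2. The libraries labelled KO2 rescue averaged 827, which is -0.34 from KO2 on the log2 scale (adjusted p = 0.00382), so the targeted mRNA went against their label. Of 13 proximal tubule markers, 4 to 6 per group had at least 10 normalized counts in both libraries, while HNF4A, SLC22A6 and SLC22A8 were listed at 0 in both libraries of every group. A value of exactly 0 needs care in this table, because 6 of 48 genes that every dividing cell uses were also listed at 0 in at least 1 library, a list chosen after the values were seen. PRPF8, a core splicing protein, was at 0 in 14 of the 22 libraries, and HPRT1, a purine salvage enzyme, in 6. A 0 is therefore given below as a gene listed at 0, with no fold against it. Nothing in the labels says that the 2 libraries of a group came from separate cultures, so the tests measure the spread between libraries, which may be technical. In bulk RNA, fewer cells with a transcript and less transcript per cell cannot be told apart.

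The members lay far apart in level. Per kilobase of the canonical transcript, FOLR1 was the highest in WT at 1680 normalized counts, followed by LRPAP1 at 208, OCRL at 154 and DAB2 at 77.9. CLCN5 followed at 4.38, CUBN at 2.03 and AMN at 1.71, and LRP2 was listed at 0. Thus in WT RPTEC the adaptor, the chaperone and the phosphatase were measured well above CUBN, which was low, while LRP2 was listed at 0. Genes with 10 or more normalized counts in 2 or more libraries were tested, which took in 7 of the 8 members and left out LRP2. A gene is called changed where limma's adjusted p is under 0.05 and the log2 change exceeds 1 in either direction.

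**Figure D1:**
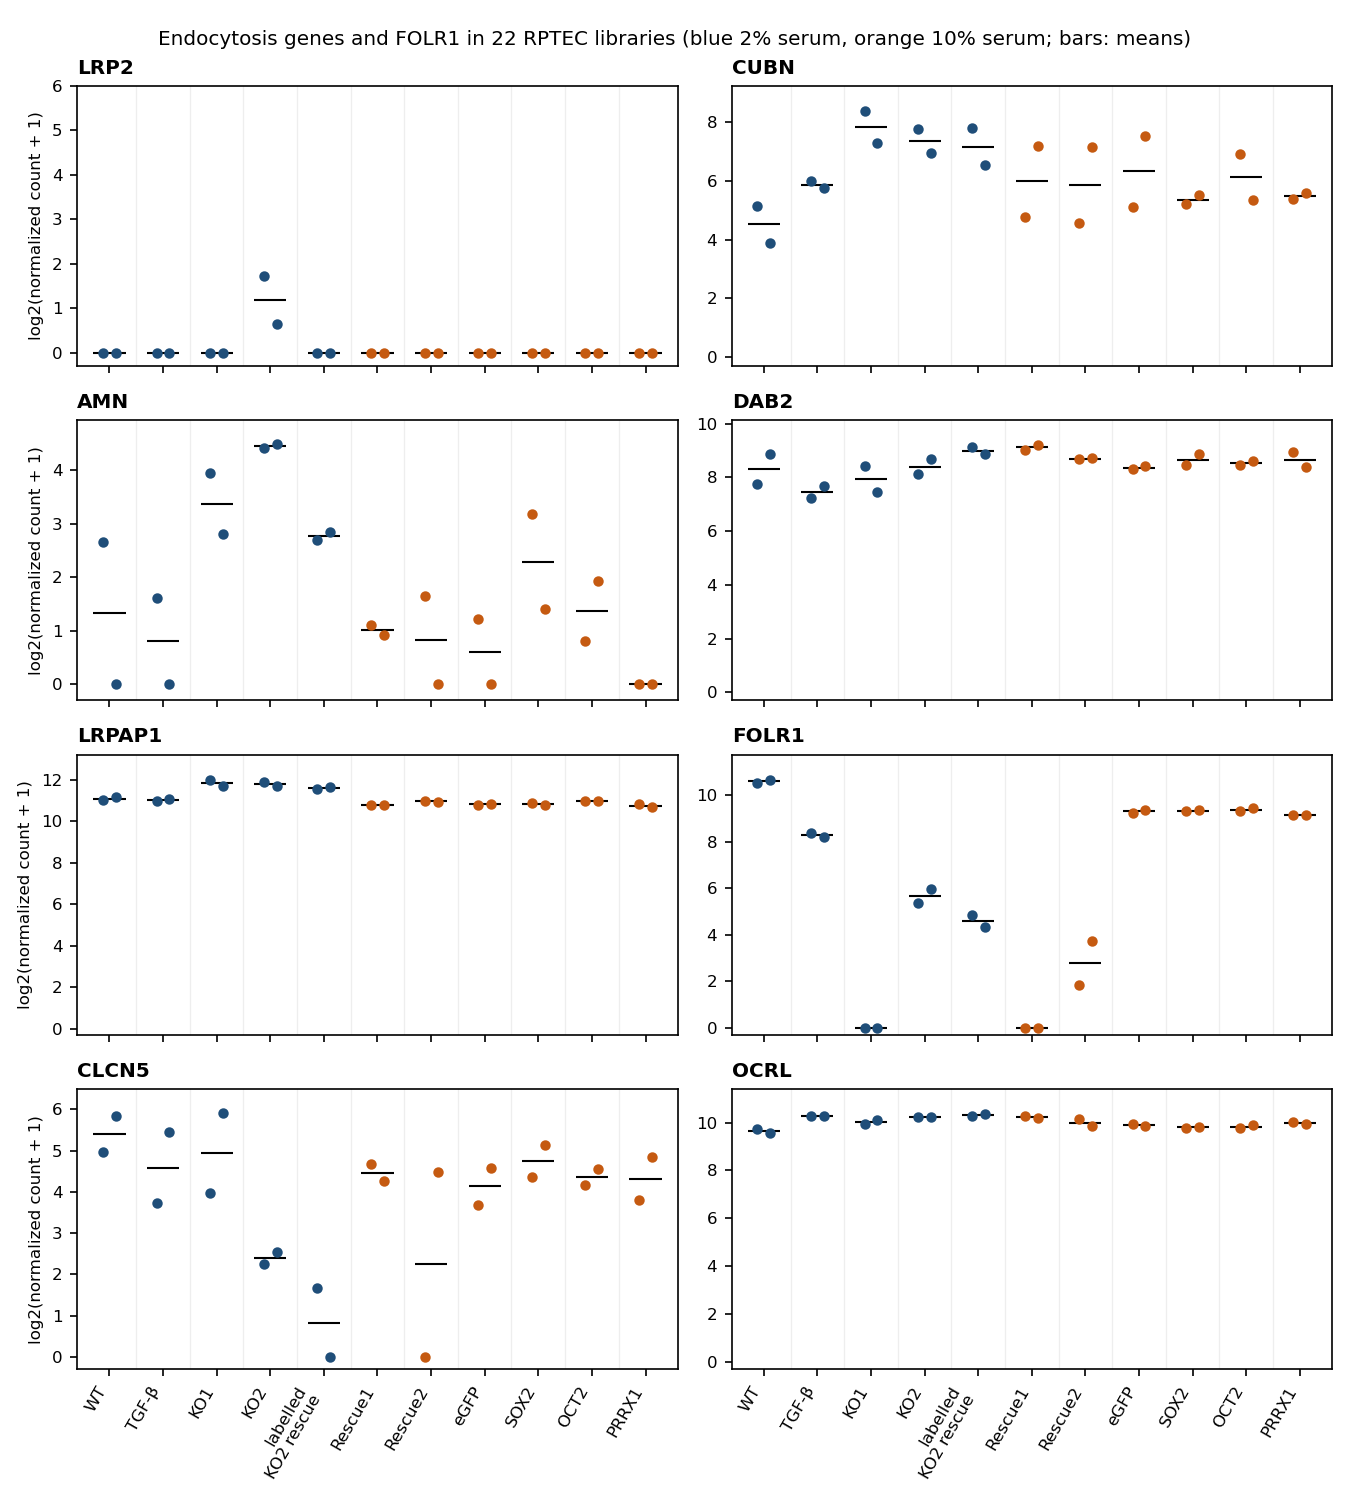
Normalized counts of the 8 genes in 22 libraries, as log2(normalized count + 1), with 1 point per library, a bar at the mean of each group of 2, and 2% serum in blue and 10% serum in orange. FOLR1 spans 0 to 1639 normalized counts, with duplicates that are close except at its lowest levels (2.58 and 12.2 in Rescue2), LRPAP1 and OCRL stay within 1635 to 4093 and 751 to 1313, and duplicates of CUBN, AMN and CLCN5 lie far apart.

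LRP2 (ENSG00000081479, chr2:169127109-169362534, minus strand, 79 exons) was listed at 0 in 20 of the 22 libraries. The exceptions were the KO2 libraries, with 2.29 and 0.553 normalized counts. Over all libraries its values amount to about 3 reads. It could not be tested, and no group is called higher or lower.

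CUBN (ENSG00000107611, chr10:16823966-17129811, minus strand, 67 exons) was above 0 in every library and rose in both KO clones. WT had 34.6 and 13.9 normalized counts and TGF-β-treated cells 62.4 and 52.5, against 333 and 153 in KO1 and 214 and 123 in KO2. Both libraries of each KO clone were above both WT libraries and both TGF-β libraries. On the log2 scale KO1 exceeded WT by 3.30 (adjusted p = 0.0145, SE 0.98) and KO2 exceeded it by 2.83 (adjusted p = 0.0423, SE 0.98). Both calls were lost with only the libraries compared (adjusted p = 0.0648 and 0.0681). The KO2 call was also lost at equal library totals (2.61, adjusted p = 0.057), with no filter on low genes (adjusted p = 0.0569) and without any of the 4 libraries in turn, with adjusted p up to 0.23, and the KO1 call without WT replicate 2 (log2 change 2.67, adjusted p = 0.109) or KO1 replicate 1 (2.75, adjusted p = 0.0899).

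Outside the KO clones CUBN did not pass the test, and its duplicates were wide. The libraries labelled KO2 rescue had 219 and 91.5 normalized counts, one above and one below the KO2 libraries. In Rescue1 the values were 26.6 and 144, in Rescue2 22.6 and 142, and in eGFP 33.3 and 184. In each of these 3 groups 1 library lay near WT and the other within the range of KO2, up to a 6.27-fold gap between duplicates. OCT2 cells had 120 and 39.9, SOX2 cells 36.1 and 44.6, and PRRX1 cells 40.7 and 46.8. Of the 10 neighbouring pairs in the order of group means, 8 overlapped, so that the order of CUBN levels is mostly not resolved.

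AMN (ENSG00000166126, chr14:102922663-102933596, plus strand) was the rarest of the tested members, with about 98 reads over all libraries and at least 10 normalized counts in 3 of them. Those 3 were both KO2 libraries, with 20.3 and 21.3, and KO1 replicate 1 with 14.4. KO1 replicate 2 had 6.02, WT had 5.31 and 0, and TGF-β-treated cells had 2.07 and 0. AMN rose in KO2 by 3.12 on the log2 scale (adjusted p = 0.0238, SE 0.96), and was not called in KO1 (2.05, SE 0.96, adjusted p = 0.108). The KO2 call was lost without WT replicate 2 (1.79, adjusted p = 0.264), KO2 replicate 1 (3.15, adjusted p = 0.0854) or KO2 replicate 2 (3.09, adjusted p = 0.091), and with only the libraries compared (adjusted p = 0.147). CDC42BPB, which overlaps AMN on the opposite strand, reached 495 normalized counts. The library kit keeps strand information, but the strand setting of the quantification was not checked here.

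AMN was lower in both rescue clones than in KO2. Rescue1 had 1.16 and 0.897 normalized counts and Rescue2 had 2.15 and 0, all below the 20.3 and 21.3 of KO2. On the log2 scale Rescue1 differed from KO2 by -3.43 (adjusted p = 0.0142, SE 0.96) and Rescue2 by -3.62 (adjusted p = 0.0106, SE 0.96). The Rescue1 call was lost without any of the 4 libraries in turn, with adjusted p up to 0.066. The Rescue2 call was lost without KO2 replicate 2 (adjusted p = 0.0516) or Rescue2 replicate 2 (adjusted p = 0.11). The libraries labelled KO2 rescue lay between, at 5.46 and 6.14. In the transduced WT cells AMN ran from 0 to 8.06.

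LRPAP1 (ENSG00000163956, chr4:3503612-3532446, minus strand) was the most abundant member in normalized counts, with close duplicates. WT had 2043 and 2308 normalized counts and TGF-β-treated cells 2025 and 2112. KO1 had 4093 and 3355 and KO2 had 3771 and 3317, all above every WT and TGF-β library. KO1 exceeded WT by 0.77 on the log2 scale (adjusted p = 1.21e-05, SE 0.096) and KO2 by 0.70 (adjusted p = 4.7e-05, SE 0.096), which is under the fold threshold in each clone. At equal library totals, which shift the median of all genes by -0.40 in KO1, the KO1 difference was 0.36 (adjusted p = 0.00948). The TGF-β libraries overlapped WT.

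LRPAP1 in every library of the rescue clones was below both WT libraries (2043 and 2308). Rescue1 had 1728 and 1733 normalized counts and Rescue2 had 2030 and 1932, while the libraries labelled KO2 rescue had 2946 and 3185. Rescue1 differed from KO2 by -1.03 on the log2 scale (adjusted p = 1.29e-06, SE 0.096), which was called, and Rescue2 by -0.84 (adjusted p = 1.03e-05, SE 0.096), which missed the fold threshold. The Rescue1 value missed that threshold without KO2 replicate 1 (-0.94), with quantile normalization (-0.98) and at equal library totals (-0.75), where the Rescue2 value was -0.51. LRPAP1 in eGFP cells, which share the serum of the rescue clones, was 1777 and 1791, with a log2 change from WT of -0.28 (adjusted p = 0.0404). Rescue1 and Rescue2 differed from eGFP by less than this test resolves (adjusted p = 0.803 and 0.296).

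DAB2 (ENSG00000153071, chr5:39371675-39462300, minus strand) was measured in every library, from 149 to 588 normalized counts, and was called in 0 of the 13 comparisons planned. WT had 215 and 462, which spans the 342 and 174 of KO1 in part and holds the 277 and 411 of KO2. TGF-β-treated cells had the lowest group mean, from 149 and 202, both below WT and overlapping KO1. The TGF-β difference from WT was -0.86 on the log2 scale (adjusted p = 0.117, SE 0.35). It passed both thresholds without WT replicate 1, at -1.41 (adjusted p = 0.0144), and at equal library totals, at -1.09 (adjusted p = 0.0456).

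CLCN5 (ENSG00000171365, chrX:49922596-50099235, plus strand) was low, from 0 to 58.8 normalized counts. WT had 30.1 and 56.2, TGF-β-treated cells 12.3 and 42.5, and KO1 14.8 and 58.8. KO2 stood below these, at 3.73 and 4.78, and the libraries labelled KO2 rescue had 2.17 and 0. The log2 change of KO2 from WT was -3.01 (SE 1.15, adjusted p = 0.0642), short of the threshold, though it passed with a pseudocount of 5 (-2.33, adjusted p = 0.0265), with quantile normalization (-3.38, adjusted p = 0.0362) and with only the libraries compared (adjusted p = 0.0446). Rescue1 had 24.7 and 18.1, in the range of the other lines in 10% serum, and Rescue2 had 0 and 21.4.

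OCRL (ENSG00000122126, chrX:129539849-129592561, plus strand) was the steadiest member, from 751 to 1313 normalized counts. WT had the lowest values, 846 and 751. TGF-β-treated cells had 1247 and 1238, KO1 had 993 and 1114, and KO2 had 1213 and 1195. All 6 of these libraries were above both WT libraries. On the log2 scale the difference from WT was 0.64 with TGF-β (adjusted p = 0.000405, SE 0.101). It was 0.40 for KO1 (adjusted p = 0.00542) and 0.60 for KO2 (adjusted p = 0.000348), and none of these passed the fold threshold. Scaling every library to the same total lowered the median of all genes by 0.23, 0.40 and 0.22 in these comparisons, and the KO1 change of OCRL was then -0.0088. OCRL in KO1 therefore has no direction that holds under both scalings.

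FOLR1 (ENSG00000110195, chr11:72189558-72196323, plus strand) had the widest range of the members, and fell in TGF-β-treated cells and in both KO clones. WT had 1486 and 1639 normalized counts, and TGF-β-treated cells had 334 and 298. KO2 had 40.7 and 61.5, and KO1 was listed at 0 in both libraries. No library of these groups overlapped another group. With TGF-β FOLR1 stood at 0.2025 of the WT mean, or -2.30 on the log2 scale (adjusted p = 0.0019, SE 0.44). KO2 stood at 0.0327 of the WT mean, or -4.93 (adjusted p = 6.91e-07, SE 0.44). The fall in KO1 passed the test (adjusted p = 8.08e-11), and its fitted size depends on the pseudocount because KO1 is listed at 0. Without any library in turn the 3 calls were kept, whereas with only the libraries compared the TGF-β call was lost (adjusted p = 0.057).

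The comparison of KO2 with TGF-β was added after the values were seen. KO2 was at 0.1615 of the TGF-β mean, or -2.63 on the log2 scale (adjusted p = 0.000324, SE 0.44). KO1 was also below TGF-β (adjusted p = 1.25e-09) and below KO2 (adjusted p = 7.68e-07). The latter call was lost with only the 4 libraries of both clones (adjusted p = 0.0576).

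FOLR1 was not restored in the clones that carry SETD2 again. Rescue1 was listed at 0 in both libraries, and Rescue2 had 2.58 and 12.2 normalized counts, all below the 40.7 and 61.5 of KO2. KO1, like Rescue1, was listed at 0 in both libraries, so neither rescue clone was below KO1. The difference from KO2 passed the test in Rescue1 (adjusted p = 2.14e-07) and in Rescue2, at -2.89 on the log2 scale (adjusted p = 0.000155, SE 0.44). The Rescue2 value moved between -1.95 and -3.83 as single libraries were left out, and its call was lost with only the libraries compared (adjusted p = 0.0937). In the same serum, eGFP cells had 610 and 670 normalized counts, so that Rescue2 was at 0.0116 of the eGFP mean, or -6.54 (adjusted p = 7.52e-08, SE 0.44). Rescue1 was also below eGFP (adjusted p = 1.62e-09). At 27.6 and 19.2, the libraries labelled KO2 rescue were not called against KO2 (-1.09, SE 0.44, adjusted p = 0.154).

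**Figure D2:**
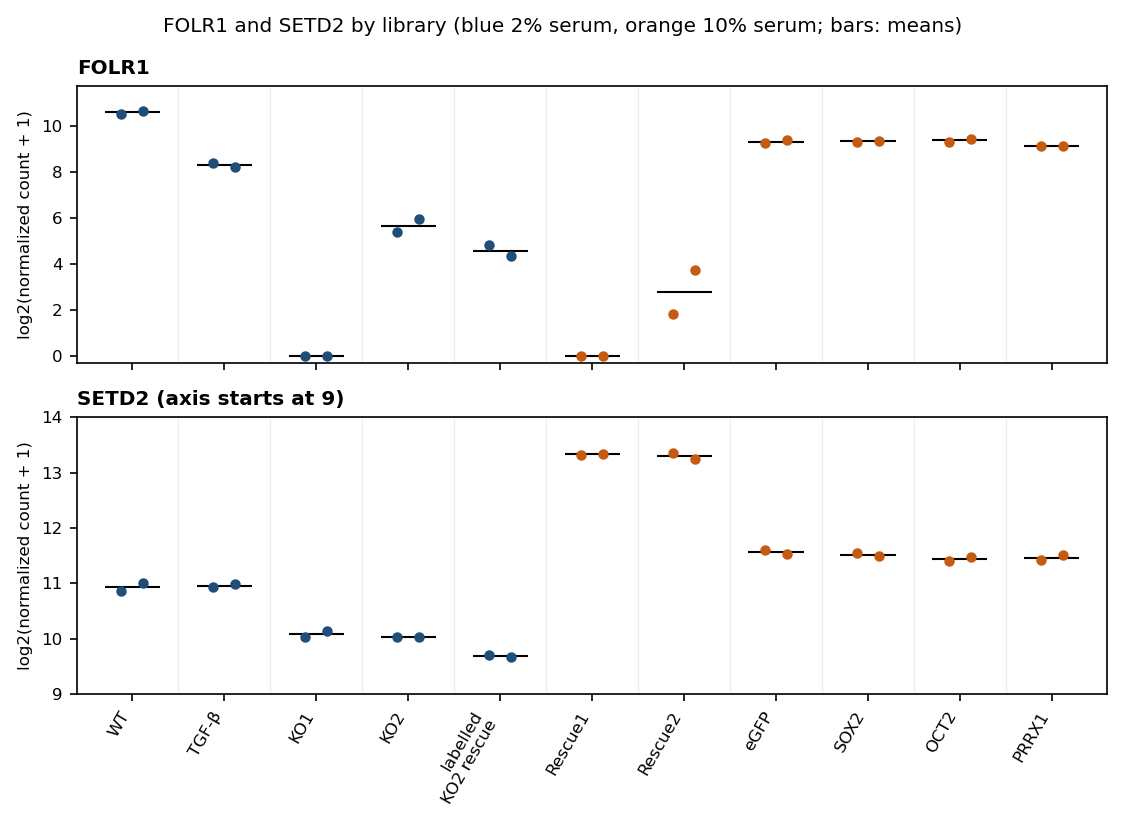
FOLR1 (upper panel) and SETD2 (lower panel, axis from 9) as log2(normalized count + 1) in each library, with bars at group means, 2% serum in blue and 10% serum in orange. SETD2 averages 10305 and 10105 normalized counts in the rescue clones, where FOLR1 is listed at 0 or at most 12.2, while the 4 transduced WT lines hold FOLR1 at 565 to 699.

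Transduced WT cells in 10% serum had less FOLR1 than WT cells in 2% serum. The 4 lines lay between 565 and 699 normalized counts, all below the 1486 and 1639 of WT. The log2 change of eGFP from WT was -1.29 (SE 0.44, adjusted p = 0.0432). This call was lost without any of the 4 libraries in turn, with adjusted p of 0.11 to 0.171, with no filter on low genes (adjusted p = 0.0595) and with a pseudocount of 0.5 (adjusted p = 0.06). SOX2 cells had 640 and 660, OCT2 cells 635 and 699 and PRRX1 cells 565 and 566, next to 610 and 670 with eGFP. The 95% interval of the log2 difference from eGFP was -0.92 to 0.97 for SOX2, -0.88 to 1.002 for OCT2 and -1.12 to 0.77 for PRRX1.

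Of the other folate receptor genes beside FOLR1 on chromosome 11, FOLR2 was listed at 0 in 21 of 22 libraries, and FOLR3 was at 39.3 and 36.8 normalized counts in WT. FOLR3 was at 10.63 and 37.2 in KO1 and 14.03 and 15.98 in KO2 and was not called in either. Among protein-coding genes within 200 kb, NUMA1, a spindle pole protein, averaged 9544 in WT, against 8357 in KO1 and 9640 in KO2. For INPPL1, an inositol phosphatase, these averages were 776, 873 and 606. ANAPC15, a subunit of the anaphase-promoting complex, averaged 1116 in WT, against 360 in KO1 and 645 in KO2, and was called lower in KO1 (-1.63, SE 0.12, adjusted p = 6.11e-08). Of the 10 tested neighbours, FOLR3 included, it was the only one called against WT in KO1, where 25% of all tested genes were called. This count is not read as a result about the locus. ANAPC15 was also lower than WT with TGF-β (-0.90, adjusted p = 0.000115) and in KO2 (-0.79, adjusted p = 0.00016), changes too small to be called. RNF121 was higher in KO1 (0.83, adjusted p = 0.00503). IL18BP was higher with TGF-β (0.84, adjusted p = 0.0145) and lower in KO2 (-0.88, adjusted p = 0.00664), again without a call.

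**Figure D3:**
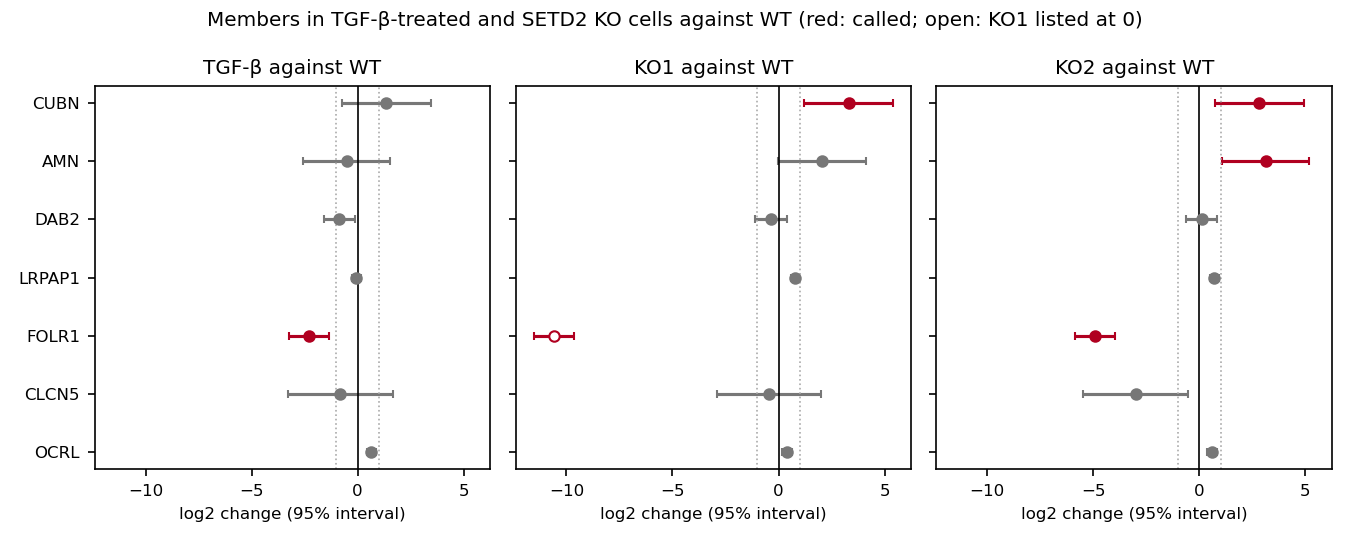
Log2 change from WT of the 7 tested members with 95% intervals from limma, on log2(normalized count + 1), for TGF-β, KO1 and KO2, with called changes in red and dotted lines at a log2 change of 1 in either direction. FOLR1 lies left of 0 in all 3 panels (-2.30 with TGF-β and -4.93 in KO2, with KO1 drawn open because it is listed at 0), while CUBN lies right of 0 in both KO panels (3.30 and 2.83).

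By comparison, 1 of 7 tested members was called with TGF-β, where 7.84% of all 14585 tested genes were, and 2 of 7 in KO1, where 25% were. In KO2 3 of 7 were called, where 16.3% were. Against KO2, 3 of 7 were called in Rescue1 and 2 of 7 in Rescue2, with 16.1% and 15.3% of all genes, and 0 of 7 in the libraries labelled KO2 rescue, with 4.17%. In the latter, 2 members had an unadjusted p under 0.05. Against eGFP, 1 of 7 was called in each rescue clone, with 12.8% and 11.1% of all genes, and eGFP against WT called 1 of 7, with 12.7%. KO1 against KO2 called 1 of 7, with 6.97%. With limma, SOX2, OCT2 and PRRX1 cells called 0 of 7 against eGFP and had 0 members at an unadjusted p under 0.05, while 0.0206%, 0.0343% and 0.0411% of all genes were called. In the comparisons added after the values were seen, KO1 and KO2 each called 2 of 7 against TGF-β, with 22.7% and 16.9% of all genes, and Rescue1 against Rescue2 called 1 of 7, with 0.994%. The comparisons with WT share the WT libraries, those with KO2 share the KO2 libraries and those with eGFP share the eGFP libraries. The median log2 change of the members was -0.52 for TGF-β, 0.40 for KO1 and 0.60 for KO2, beside medians near 0 over all tested genes. With 7 members each median is the value of 1 gene, AMN for TGF-β and OCRL for both KO clones. These medians are not read as a shift of the members as a group.

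Several other receptors of the lipoprotein receptor family changed in the KO clones. Of 10 tested, 6 rose in KO1, 3 in KO2 and 1 with TGF-β, and 0 were called lower. The median log2 change was 2.34 in KO1 and 1.299 in KO2, beside medians near 0 for all tested genes, of which 12% and 9.02% rose and 13.1% and 7.29% fell. With TGF-β 3.58% of all tested genes rose and 4.26% fell. LRP1, a broad scavenger receptor, was at 2372 and 2162 normalized counts in WT and 6334 and 5264 with TGF-β. KO1 had 21767 and 23237 and KO2 had 12929 and 12102, so that LRP1 rose by 3.31 on the log2 scale in KO1 (adjusted p = 2.41e-12, SE 0.1001), 2.47 in KO2 and 1.35 with TGF-β. LRP1B was listed at 0 in both WT libraries and had 56.3 and 53.8 in KO1 and 23.3 and 36.6 in KO2. LRP4 and LRP5 were called in KO1 from few reads, LRP4 with 32.6 and 0 in WT against 136 and 113. With every library at the same total, 5 of this list rose in KO1 and 3 in KO2.

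**Figure D4:**
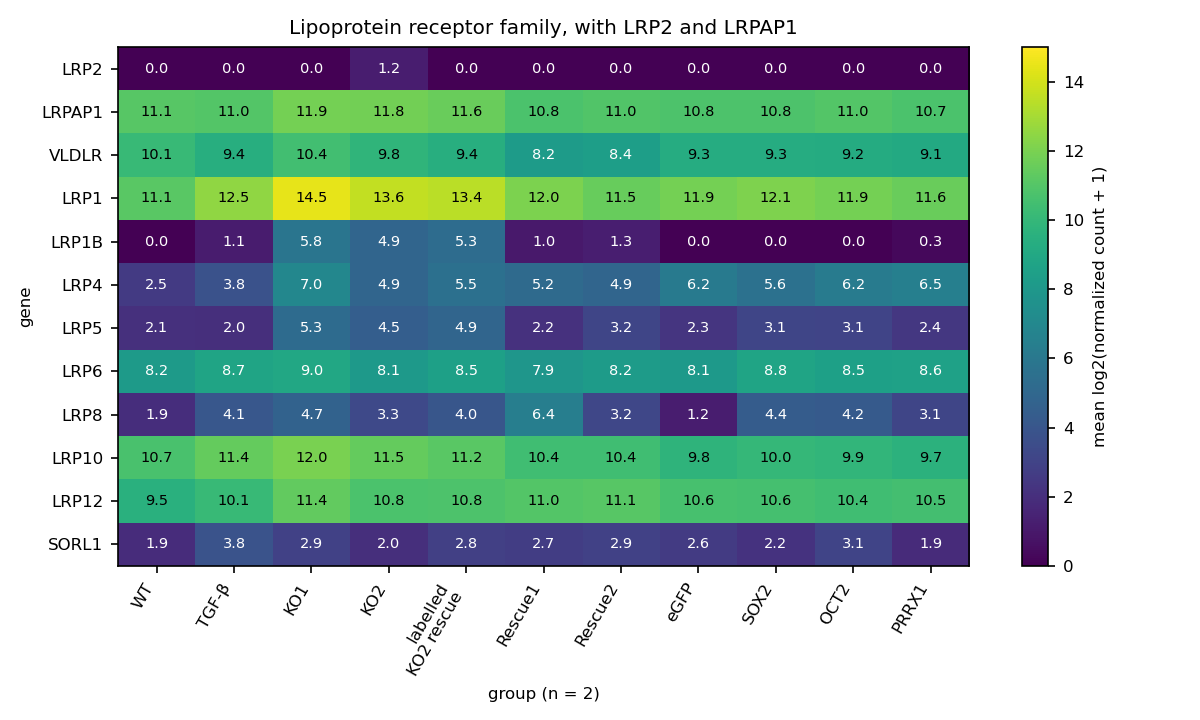
Mean log2(normalized count + 1) over 2 libraries of LRP2, LRPAP1 and 10 genes of the lipoprotein receptor family in the 11 groups, with the color scale from 0 to 15. LRP2 is at or near 0 throughout, LRP1 rises from a mean of 2267 normalized counts in WT to 22502 in KO1, and LRP1B is listed at 0 in WT and averages 55.1 in KO1.

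Among 14 tested genes that bind receptor tails or move coated vesicles, 3 rose and 2 fell in KO1, 1 rose in KO2 and 0 were called with TGF-β. For this list and those that follow, the shares of all tested genes that rose and fell were 12% and 13.1% in KO1. They were 9.02% and 7.29% in KO2, and 3.58% and 4.26% with TGF-β. Counts near these shares are not read as a result about a list. DAB1, the neuronal relative of DAB2, had 0.879 and 0 normalized counts in WT, 697 and 651 in KO1, and 317 and 308 in KO2. It was listed at 0 in all 4 rescue libraries. MYH9, a non-muscle myosin, fell from a WT mean of 125628 to 38334 in KO1, and MYO6, the myosin of endocytic vesicles, from 1511 to 719. DLG4 and NHERF2, scaffold proteins, rose in KO1 with log2 changes of 1.83 and 1.64.

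Of 19 tested genes of the clathrin coat, 1 rose and 1 fell in each KO clone, and 1 rose with TGF-β. AMPH, amphiphysin, rose in both clones, at 58.0 and 69.8 normalized counts in KO1 and 40.7 and 50.7 in KO2 against 1.5 and 0 in WT. AP2B1, a subunit of the adaptor that recruits clathrin, fell to a mean of 4414 in KO1 from 9017, and CLTB, a clathrin light chain, to 628 in KO2 from 1361. DNM1, a dynamin, rose with TGF-β, from 215 to 748.

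Of 21 endosome genes, 1 rose and 3 fell in KO1, 2 rose and 1 fell in KO2 and 0 were called with TGF-β. PHETA1, a binding partner of OCRL, rose in KO2 by 1.60 on the log2 scale (adjusted p = 1.9e-07, SE 0.13) and stood at 843 and 757 normalized counts against 277 and 248 in WT. INPP5B, the nearest relative of OCRL, was called lower in KO1 from 150 and 0 against 140 and 201 in WT, so this call rests on 1 library listed at 0. RAB5A, the early endosome GTPase, rose in KO1, at 199 and 160 against 35.3 and 91.0. With every library at the same total, 0 rose and 4 fell in KO1.

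Of 15 tested genes of chloride and proton transport, the process that CLCN5 serves, 4 rose and 2 fell in KO1, 3 rose in KO2, and 1 rose and 1 fell with TGF-β. ATP6V0A4, the proton pump subunit of apical membranes, had 62.4 and 110 normalized counts in WT, was listed at 0 with TGF-β, and had 14.9 and 18.7 in KO1. ATP6V1A was listed at 0 in both WT libraries although every cell uses it, so its call in KO2 is no measure of a change. CFTR, a chloride channel, had 0 and 0.808 in WT against 10.61 and 29.8 in KO1 and 16.5 and 13.0 in KO2. OSTM1, the partner subunit of another lysosomal exchanger, rose with TGF-β and in KO1.

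Of 12 tested genes that take up or use folate, 4 fell in KO1, 1 in KO2 and 1 with TGF-β, and 0 rose in these 3 comparisons. TYMS, thymidylate synthase, had 244 and 54.6 normalized counts in WT, 7.4 and 0 in KO1 and 42.3 and 0 in KO2. GGH, a hydrolase of folate chains, fell from 32.7 and 36.2 to 4.8 and 0 in KO1, and MTHFD1, a folate-interconverting enzyme, from 53.3 and 86.6 to 18.97 and 0. The KO1 calls of all 3 of these genes take in 1 library listed at 0, as does that of TYMS in KO2. SHMT1, a serine hydroxymethyltransferase, fell with TGF-β and in KO1, with log2 changes of -1.84 and -1.30. TYMS in the rescue clones was at 270 to 350, above KO2.

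Of 12 tested genes for ligands of the receptors and their use, 2 rose and 1 fell in KO1, 1 rose and 3 fell in KO2 and 2 rose with TGF-β. RBP4, the retinol carrier taken up by megalin, was listed at 0 in WT and had 90.3 and 120 normalized counts in KO1 and 188 and 161 in KO2. CYP24A1, which breaks down vitamin D, rose in KO1, at 292 and 207 against 11.34 and 4.04. CD320, the receptor for the vitamin B12 carrier, fell in both clones, from 21.97 and 17.02 to at most 2.9, and MMACHC, an enzyme of cobalamin use, was called lower in KO2 from 20.2 and 0 against 49.9 and 36.8, so this call rests on 1 library listed at 0.

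Of 9 tested transcription factors of the proximal tubule, 3 rose and 2 fell in KO1, 2 rose in KO2 and 1 rose with TGF-β. PPARA, a nuclear receptor of fatty acid oxidation, rose from a WT mean of 312 normalized counts to 1273 in KO1 and 938 in KO2. MAF rose with TGF-β and in both clones, where it stood at 181 and 109 in KO1 and 295 and 244 in KO2 against 15.4 and 2.7 in WT. PPARG and LHX1 were listed at 0 in KO1, where WT had 12.8 and 20.8, and 9.7 and 14.5. Under the same total, 2 of this list rose and 4 fell in KO1.

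Marker genes of several cell types shifted between the groups in which FOLR1 differed, and single genes carried the sums of their lists. The 13 proximal tubule markers, CUBN and LRP2 included, summed to 4126 to 4133 normalized counts in WT, 1759 to 1800.02 with TGF-β, 1363 to 1948 in KO1, 1759.94 to 2096 in KO2 and 460 to 735 in the rescue clones. PDZK1, a scaffold of apical transporters, made up most of the WT sum and fell from a mean of 3218 in WT to 39.6 in KO1, 359 in KO2 and 418 with TGF-β. Without PDZK1 the order turned, with 877 to 945 in WT, 1336 to 1388 with TGF-β, 1326 to 1905 in KO1 and 1371 to 1766 in KO2, while the rescue clones stayed lowest at 384 to 665. Of 6 tested, 3 rose and 1 fell in each KO clone, and those that rose beside CUBN were ANPEP, a brush border peptidase (29.1 in WT, 280.01 in KO1), and SLC13A3, a dicarboxylate transporter (11.79 in WT, 210.3 in KO1). AQP1 of the same list went the other way, with means of 64.2 in WT, 7.79 in KO1 and 17.9 in KO2. With TGF-β AQP1 averaged 440, a large part of that sum without PDZK1, and 0 of the 6 were called higher.

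The 7 fibroblast markers summed to 842 to 12450 in WT and 46375 to 47804 with TGF-β. Their sums were 223500 to 236648 in KO1, 100070 to 103682 in KO2 and 824 to 1536 in the rescue clones. DCN, a matrix proteoglycan, averaged 228207 in KO1 and 96676 in KO2 against 383 in WT, and without it the sums were 1839 to 1894 in KO1 and 5092 to 5309 in KO2, within the 553 to 11973 of WT. COL1A1, a collagen chain, carried the TGF-β sum with a mean of 45802, and averaged 6226 in WT, 928 in KO1 and 3636 in KO2. COL1A1 made up nearly all of the WT sums without DCN, so its WT duplicates lay as far apart as 553 and 11973. The KO1 and KO2 means of COL1A1 lay between these WT values, and no fall is read from them. Of the 7, 4 rose and 1 fell in KO1, 4 rose in KO2 and 3 rose with TGF-β. Endothelial markers summed to 4.99 to 40.3 in WT and 126 to 154 over both KO clones, where KDR, a growth factor receptor, rose from a mean of 0.385 to 113 in KO1 and 136 in KO2, while CDH5 and EMCN were listed at 0. The 4 leukocyte markers summed to 106 to 147 in WT and 148 to 371 in the KO clones, mostly from CD68 (126 in WT, 287 in KO1), which was not called, and CD3E was listed at 0. The 4 podocyte markers summed to 477 to 792 in WT and 130 to 356 in the KO clones, with NPHS1 and WT1 listed at 0 in the latter, and the 7 measured distal markers to 112 to 114 and 41.9 to 210, with AQP2 and UMOD listed at 0 there. The part of these shifts in the FOLR1 result was not tested.

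Across the 11 group means of log2(normalized count + 1), the genes most like FOLR1 were IRX2, an Iroquois transcription factor, with a Pearson r of 0.977, and LAMA3, a laminin chain, with 0.964. IRX2 ran from a group mean of 0 to 248 normalized counts. For LRPAP1 these were ST6GALNAC2 and EOLA1, both at 0.990, for CUBN SWI5 and ZP3 at 0.954 and 0.942, and for AMN PBXIP1 and BCKDK at 0.938 and 0.923. DAB2 was nearest to CPA5 (0.914) and LDHB (0.908), CLCN5 to FGFR3 (0.956) and CAMTA1 (0.922), and OCRL to MMP2 (0.936) and RASSF4 (0.935). Among the members themselves, AMN and LRPAP1 had the highest r, 0.880, followed by CUBN and LRPAP1 with 0.785, and the lowest was CUBN and FOLR1 with -0.59. These are descriptions over 11 means that share 1 table, with groups that share a parent line.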

How the data were processed

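RNA-seq libraries were made by the authors with a stranded mRNA kit, quantified with Salmon 1.9.0 on the Ensembl 94 cDNA of GRCh38 and normalized with DESeq2 1.26.0 (versions from the submitters' processing notes). The values deposited by the authors are log2 values of 36859 genes that start at 11.32 and reach 21.28, the form of DESeq2's variance-stabilized values, which the sources used here do not name. Inverting that form, whose only parameter follows from the lowest value, gave normalized counts. Symbols and positions came from GENCODE 44 (GRCh38) for 33878 genes. Groups were taken from the labels. Some genes of the lists are not reported here, and counts and sums leave them out.

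All 22 libraries entered 1 limma 3.58.1 fit (R 4.3.3, variance trend, a mean per group) on log2(normalized count + 1), for 14585 genes reaching 10 normalized counts in 2 or more libraries, with Benjamini-Hochberg adjustment per comparison. Adjusted p-values and SEs are from this fit. On simulated data for KO1 against WT, 99.5% of 200 genes with planted changes were recovered among 14585. The simulation gave all genes the same fixed spread, and planted changes above the fold threshold only in genes that were not low. It therefore does not speak for members with few reads or wide duplicates, such as AMN and CUBN. The planned test was kept, since it uses log values. Reads per library were approximated from the step between low values, at 7600000 to 18500000, and the depth of single genes is approximate. Data were handled with Python 3.11.15, numpy 2.4.6, pandas 2.3.3, matplotlib 3.10.9 and the data.table package (version 1.17.8).

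The members, lists and motifs were chosen with earlier results of these data known. All 8 members are named, with up to 4 genes per list by size of change among those called against WT, and the 2 genes most like each tested member. MYO6 and the neighbours of FOLR1 lie outside this rule and were named after their values were seen. Alternatives were pseudocounts of 0.5 and 5, a filter on the mean (50 normalized counts) or none, quantile normalization, equal library totals, fits of just the libraries compared, a replicate block, the deposited log2 values, calls by adjusted p alone, and leaving out each library. KO1 and KO2 against TGF-β and Rescue1 against Rescue2 were added after the data were seen.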

Additional observations from a re-analysis of the deposited data

Results flagged for a closer look

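FOLR1 was called different between clones of the same kind, by the direct contrast of the clones in the limma fit. Both contrasts set a clone listed at 0, a value that needs care in this table, against another clone. Between KO1, listed at 0 in both libraries, and KO2, at 40.7 and 61.5 normalized counts, the fitted difference on log2(normalized count + 1) was -5.67 (adjusted p = 7.68e-07), a size that depends on the pseudocount. Between Rescue1, listed at 0 in both libraries, and Rescue2, at 2.58 and 12.2 (about 2.8 and 14.7 reads), it was -2.78 (adjusted p = 0.00289). The latter contrast was added after the values were seen, and it was lost with a pseudocount of 5 (-1.19, adjusted p = 0.0908) and with only the libraries compared (adjusted p = 0.375). With only the libraries compared the contrast of KO1 with KO2 was also lost (adjusted p = 0.0576). Each clone is 1 line, and the cause was not tested.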

How the results depend on the processing

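The counts of members called are set here beside their main values against WT, which were 2 in KO1, 3 in KO2 and 1 with TGF-β, and the 1 for KO1 against KO2. With adjusted p alone KO1 had 4, KO2 had 5 and TGF-β had 2 against WT, and 2 for Rescue1 against eGFP and for eGFP against WT. With only the libraries compared, which leaves 4 libraries per fit, they were 0 with TGF-β, 1 in KO1, 0 for KO1 against KO2, 1 for Rescue2 against KO2, 1 for KO1 against TGF-β and 0 for Rescue1 against Rescue2. On the deposited log2 values, a scale that compresses low genes, KO1 against WT called 1 and all 11 other comparisons with a call in the main fit called 0. With no filter, KO1 against KO2 called 2 and the libraries labelled KO2 rescue called 1 against KO2, where LRP2 was the added gene in both, from about 3 reads. No filter also gave 0 for eGFP against WT and 1 for KO1 against TGF-β, as did a pseudocount of 0.5. A pseudocount of 5 gave 0 for Rescue1 against Rescue2. A mean of at least 50 normalized counts, which removes AMN, gave 1 for Rescue2 against KO2 and for KO1 and KO2 against TGF-β. The same total gave 2 with TGF-β against WT, and both it and quantile normalization gave 1 for KO1 against TGF-β. Leaving out single libraries gave 1 to 2 with TGF-β, 1 to 3 in KO1 and 1 to 2 in KO2 against WT, 0 for eGFP against WT, 1 to 2 for KO1 and for KO2 against TGF-β, 1 to 2 for Rescue1 and for Rescue2 against KO2, and 1 to 2 for Rescue2 against eGFP. Where this leaves 1 library in a group, it is assumed to vary like the others. Of single values, OCRL reversed under the same total in KO1 against WT (-0.0088) and in Rescue2 against KO2 (0.0865), and CLCN5 in Rescue1 against Rescue2 without Rescue2 replicate 1, where leaving out single libraries gave -0.0192 to 4.469. The replicate numbers did not pair the libraries: over 55 pairs of groups the correlation of replicate differences was -0.08 to 0.05. With the replicate block all 16 counts stayed within 1.5 times the main count, and 48 of 50 single values kept their side of the thresholds. The exceptions were CUBN in KO2 against WT, lost at 2.83 (adjusted p = 0.0517), and CLCN5 there, called at -3.01 (adjusted p = 0.0422).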
